A study of Homo sapiens with 12 samples.

Results

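The binding sites of hnRNP M in wild-type (WT) and P-KO cells of the human embryonic stem cell line H9 are described here. A site was a listed nucleotide of an hnRNP M library that lay 11 nt or more from any kept position of higher count on its strand. The mitochondrial chromosome, an unplaced contig of ribosomal DNA and the stretch of chromosome 15 that holds the Prader-Willi region were left out. This gave 58348 sites in 12003 transcripts, of 716630 sites and 50961 transcripts in all 12 libraries of the series.

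hnRNP M is an abundant nuclear protein that carries several RNA recognition motifs. It binds GU-rich stretches of newly made transcripts, mostly in introns, and changes which exons are kept during splicing. The Prader-Willi region encodes the SPA RNAs, noncoding transcripts capped by a small nucleolar RNA, which are known to bind hnRNP M together with RBFOX2 (labelled FOX2 here) and TDP43. The comparison of P-KO with WT cells outside that region asks whether hnRNP M contacts other transcripts differently in P-KO cells. These statements are background and were not measured here. All 12 libraries of the series are iCLIP libraries, so the amount of each RNA was not measured. A difference in binding therefore cannot be told apart from a difference in RNA amount.

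WT H9 cells and P-KO H9 cells, whose source label reads SPA PKO, were both crosslinked with ultraviolet light at 400 mJ per square centimetre. iCLIP then recovered hnRNP M with antibody 1D8 and read the RNA fragments attached to it, placing each crosslink to the nucleotide. Each genotype had 2 libraries, called biological replicates in the design text. How the P-KO cells were made, and whether they are 1 clone, is not given in the labels. The cells were grown in defined medium or in medium conditioned by mouse fibroblasts.

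The libraries differed in depth more by library than by genotype. There were 7162 sites in WT replicate 1, 31952 in WT replicate 2, 7847 in P-KO replicate 1 and 11387 in P-KO replicate 2. Their counts summed to 60268, 115764, 61641 and 56115. WT replicate 2 thus stood apart with the most sites, while the other libraries had similar totals.

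Counts per site also followed the library. The mean count per site was 8.41 in WT replicate 1, 3.62 in WT replicate 2, 7.86 in P-KO replicate 1 and 4.93 in P-KO replicate 2. Both replicate 1 libraries had 9 as their most frequent count, against 3 in WT replicate 2 and 5 in P-KO replicate 2. The genotypes therefore overlapped: the mean was 6.02 ± 3.39 in WT and 6.39 ± 2.07 in P-KO (SD, n = 2 each). The log2 mean differed by 0.17 (exact permutation test over libraries, two-sided, p = 1; the smallest exact p for groups of this size is 0.33). It was 0.44 lower in P-KO without WT replicate 2 and 0.16 lower without P-KO replicate 1, so the direction rested on single libraries. Numbers of sites are therefore given beside counts.

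**Figure D1:**
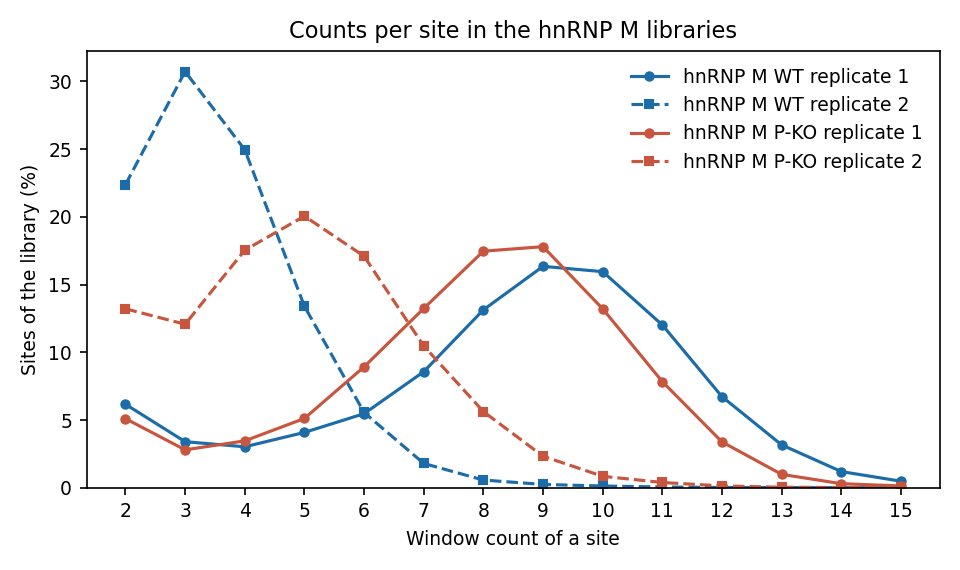
Percentage of the sites of each hnRNP M library (vertical axis) by their window count (horizontal axis, 2 to 15); solid lines are replicate 1 and dashed lines replicate 2. Both replicate 1 libraries peak at 9, WT replicate 2 at 3 and P-KO replicate 2 at 5.

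hnRNP M sites lay mostly in introns in both genotypes. The share of sites carrying an intron number was 94.4% and 93.2% in the WT libraries and 95.3% and 94.4% in the P-KO libraries. Both P-KO values were above both WT values, though the nearest pair both round to 94.4%; the mean difference was 1.10 percentage points (93.8% ± 0.826 against 94.9% ± 0.654, SD, n = 2 each; exact permutation test, two-sided, p = 0.33, the smallest possible). The difference ranged from 0.513 points without WT replicate 2 to 1.68 without WT replicate 1. By share of window counts the genotypes overlapped, with 95.4% and 92.7% in introns in WT, against 95.8% and 94.2% in P-KO. Sites without an intron number were 403 and 2171 in WT, against 365 and 635 in P-KO.

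The first intron of a transcript held 22.2% and 21.7% of sites in WT, against 21.5% and 22.3% in P-KO, which overlap. Second introns held 13.7% and 13.2% in WT, against 13.9% and 12.6% in P-KO. Introns numbered 10 and above held 25.8% and 25.3% in WT, against 25.6% and 25.8% in P-KO. Introns numbered 4 to 9, held 24.0% and 24.5% of WT sites and 25.8% and 24.9% of P-KO sites, so both P-KO values were above both WT values; this class was not tested.

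Sites were spread thinly over many transcripts. A transcript with any site had 1.90 and 3.51 sites on average in the WT libraries and 1.99 and 2.26 in the P-KO libraries. A lone site was all that 65.3% and 49.7% of the listed transcripts had in WT, against 64.0% and 58.9% in P-KO. Of the 12003 transcripts, 6520 were listed in 1 library, 2510 in 2, 1597 in 3 and 1376 in all 4. The 1376 transcripts listed in all 4 held 57.9% and 49.1% of the sites in WT, against 57.3% and 52.6% in P-KO. All 1376 also had a site in at least 1 FOX2 or TDP43 library, as did 94.0% of the 12003.

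The 10 transcripts with the highest mean share of window counts had most of their sites in introns. Together they held 5.04% and 3.96% of window counts in WT, against 3.98% and 4.14% in P-KO. With no table of gene names for the identifiers, transcripts are given by the span of their listed sites in hg19. The highest was chr6:15246985-15520059 on the plus strand, with 575 sites in 12 introns and 59.5% of them in intron 1. It had 793 counts in 89 sites in WT replicate 1, 1167 in 307 in WT replicate 2, 646 in 77 in P-KO replicate 1 and 540 in 102 in P-KO replicate 2. These counts were 1.16% ± 0.218 of the library in WT and 1.01% ± 0.0606 in P-KO (SD, n = 2), and the shares overlapped between genotypes. After TMM normalization the CPM no longer overlapped. Its log2 difference, P-KO minus WT, was -0.28 with a standard error (SE) of 0.10 (edgeR quasi-likelihood test, adjusted p = 0.999), and by number of sites it was -0.26 (SE 0.23; adjusted p = 0.959 by edgeR).

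The transcript at chr5:93491235-93697799 on the minus strand had all of its 245 sites in intron 1. It had 327 counts in 36 sites and 422 in 104 in WT, against 380 in 44 and 316 in 61 in P-KO. Both P-KO shares (0.616% and 0.563%) were above both WT shares (0.543% and 0.365%). The difference did not pass (log2 difference 0.32, SE 0.17, adjusted p = 0.999 by edgeR). The FOX2 libraries had 6249 and 6102 window counts per 1000000 of the library (CPM) there in WT, against 13502 and 14223 in P-KO, while hnRNP M had 5426 and 3645 CPM in WT, against 6165 and 5631 in P-KO.

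The transcript at chr3:61547646-61756690, plus strand, had 85.8% of its 212 sites in intron 1. Its shares were 0.455% and 0.385% in WT, against 0.284% and 0.310% in P-KO, lower in both P-KO libraries than in both WT libraries. The log2 difference was -0.57 (SE 0.21; adjusted p = 0.999 by edgeR) and -0.49 by number of sites (SE 0.29; adjusted p = 0.959 by edgeR). hnRNP M held 2839 to 4546 CPM there over its 4 libraries, against 704 to 2021 CPM over the 8 FOX2 and TDP43 libraries. The transcript was chosen for its hnRNP M share, so this contrast between proteins is a description.

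At chr5:7397074-7822084, plus strand, the 171 sites were spread over 16 introns. Counts were 282 in 32 sites and 349 in 92 in WT, against 135 in 17 and 144 in 30 in P-KO. The shares were 0.468% and 0.301% in WT, against 0.219% and 0.257% in P-KO. The log2 difference was -0.73 (SE 0.25) without passing (adjusted p = 0.999 by edgeR). FOX2 went the other way there, with 3193 and 3481 CPM in WT, against 6674 and 6534 in P-KO. The difference between the genotype effect of hnRNP M and the mean effect of FOX2 and TDP43 was -1.77 on the log2 scale and did not pass either (adjusted p = 0.429 by edgeR).

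The transcript at chr14:89664761-90084182, minus strand, had shares of 0.363% and 0.327% in WT, against 0.282% and 0.244% in P-KO (log2 difference -0.47, SE 0.22, adjusted p = 0.999 by edgeR). The shares of the other 5 overlapped between genotypes, as those of the highest transcript did. They lay at chr4:93227261-94674720 (0.323% to 0.650% over the 4 libraries), chr15:99192319-99505452 (0.292% to 0.453%) and chr7:70598808-71166960 (0.227% to 0.295%) on the plus strand. On the minus strand were chr16:89336835-89556577 (0.161% to 0.474%) and chr10:126694494-126847268 (0.260% to 0.390%). At chr16:89336835-89556577 the lowest and the highest share were those of the P-KO libraries.

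**Figure D2:**
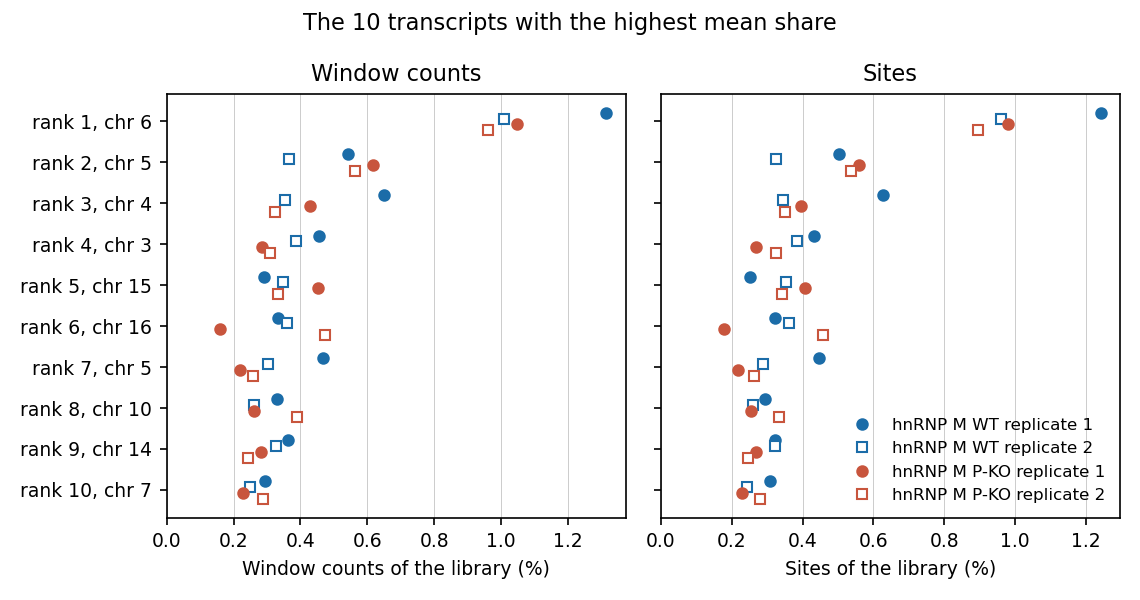
Share of window counts (left) and of sites (right) of each hnRNP M library, in percent, held by the 10 transcripts of highest mean share, ranked from the top and marked with their chromosome. Points are libraries, blue for WT and red for P-KO; rank 1 holds 0.962% to 1.32% of counts, and most ranks overlap between genotypes.

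No transcript outside the left-out regions passed the test of P-KO against WT. Of 1757 transcripts tested on window counts, 0 passed an adjusted p of 0.05 in edgeR's quasi-likelihood test (0% called), and 36 (2.05%) had an unadjusted p under 0.05, of which 8 (0.455%) were higher and 28 (1.59%) lower in P-KO. DESeq2 also called 0 of 12003 (0% called), with 22 (0.183%) at an unadjusted p under 0.05. By number of sites, edgeR called 0 of 85 transcripts that passed its filter, with 0 at an unadjusted p under 0.05. A fit on transcripts with 10 or more sites in all, chosen after seeing the data and used for the site differences of named transcripts, called 0 of 1413 (0%), with 56 (3.96%) at an unadjusted p under 0.05. The median log2 difference over the tested transcripts was -0.04, and the median SE was 1.19, so differences of single transcripts had wide errors. Counts were simulated at the full library totals with a common spread for all tested transcripts (coefficient of variation 0.857). On these the same fit gave planted changes their direction but called none of them. Spreads that differ by transcript and other sizes of change were not simulated. The absence of calls in the data does not show that binding was alike. P-KO lay wholly above WT in 256 of the 1757 (14.6%) and wholly below in 313 (17.8%).

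Leaving out a WT library produced a few calls. Without WT replicate 1, 1 transcript was called lower in P-KO (edgeR adjusted p = 0.000196), at chr1:28833874-28858315 on the plus strand. It had 0 counts listed in WT replicate 1, 289 in WT replicate 2, and 11 and 25 in P-KO. Without WT replicate 2, 3 transcripts were called higher in P-KO, each listed at 0 in WT replicate 1. The transcript at chr7:157131033-157173751, plus strand, had 120 counts in the WT replicate 2 library that was left out and 84 and 61 in P-KO. The other two, on the minus strand, lay at chr7:158540056-158620512 (37 counts in WT replicate 2; 38 and 89 in P-KO) and chr7:28096192-28219124 (50; 98 and 20). Leaving out either P-KO library gave 0 calls. In these fits the lone library of a genotype was assumed to vary like the other group. With the left-out regions kept, 3 transcripts were called lower in P-KO, and all their positions lay in the chromosome 15 region; their counts in the WT libraries were 335 and 654, 285 and 449, and 168 and 185, and both P-KO libraries were listed at 0.

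For numbers of sites per transcript, over transcripts with at least 5 in a pair of libraries, the chi-square per degree of freedom was 1.05 between the WT libraries and 1.13 between the P-KO libraries. Between libraries of different genotype it was 1.07 to 1.14. Libraries of different genotype thus differed in their sites per transcript about as much as libraries of the same genotype did. On window counts the chi-square per degree of freedom was far higher, at 8.31 between the WT libraries and 7.84 between the P-KO libraries. Between genotypes it was 5.68 to 9.58 on window counts.

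Across the 1757 transcripts, log2 CPM correlated between the WT libraries with Pearson's r = 0.397 and between the P-KO libraries with r = 0.265. Between genotypes r ranged from 0.232 to 0.495. These are correlations over transcripts of differing depth, which are not independent replicates. The highest, 0.495, joined WT replicate 2 and P-KO replicate 2. WT replicate 2 had r from 0.535 to 0.668 with the FOX2 and TDP43 libraries, above its r with any other hnRNP M library, and WT replicate 1 had 0.269 to 0.367.

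**Figure D3:**
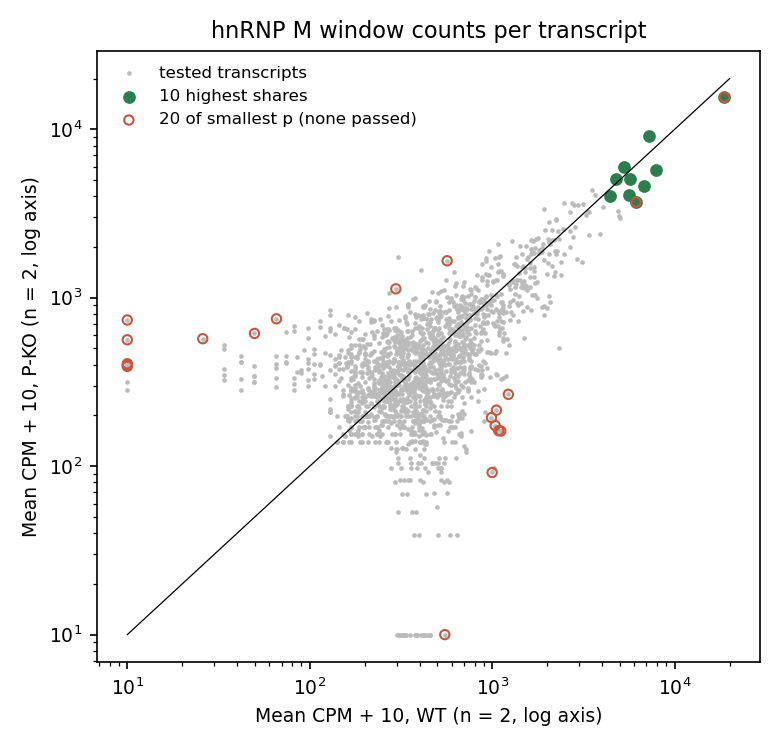
Mean TMM-normalized CPM plus 10 of each of the 1757 tested transcripts in WT (horizontal) and P-KO (vertical), both on log axes, n = 2 each; the line marks equality. The 10 transcripts of highest share lie near the line, and the 20 of smallest p, ringed, did not pass; those ringed at 10 on the WT axis are listed at 0 in WT.

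The 10 transcripts of smallest p that were higher in P-KO had 4 to 31 sites over the 4 libraries. ENST00000453386.2, with all 8 sites in intron 8 at chr3:185647643-185655220 on the minus strand, was listed at 0 in both WT libraries and had 42 counts in 5 sites and 16 in 3 in P-KO (adjusted p = 0.999 by edgeR). It was listed in 7 of the 8 FOX2 and TDP43 libraries, WT included. ENST00000311172.7, at chr11:72594812-72848849 on the minus strand, had 21 counts in 3 sites in each P-KO library and was listed at 0 in WT (adjusted p = 0.999 by edgeR). The 8 FOX2 and TDP43 libraries had 6 to 23 counts there. Both transcripts therefore had signal with the other proteins in WT cells.

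Of the 10, 5 had counts in at least 1 WT library, and 3 of these are described next. At chr9:20659297-20993438, plus strand, WT had 22 counts in 2 sites and 37 in 11, against 83 in 10 and 46 in 8 in P-KO (log2 difference 1.56, SE 0.56, adjusted p = 0.999 by edgeR). At chr13:114159297-114200882, plus strand, WT had 6 and 27 counts and P-KO 53 and 34 (log2 difference 1.94, SE 0.82). Sites numbered 1 and 8 there in WT, against 5 and 8 in P-KO, which is 0.0140% and 0.0250% of the sites of the WT libraries and 0.0637% and 0.0703% of those of the P-KO libraries. At chr11:132954599-133393906, minus strand, 11 sites all lay in intron 7, with 0 and 7 counts in WT, against 43 and 16 in P-KO. None passed.

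The 10 transcripts of smallest p that were lower in P-KO had 11 to 575 sites. ENST00000380050.3, at chr7:90424976-90823991 on the plus strand, had 39 counts in 4 sites and 66 in 16 in WT, and 2 and 4 counts in 1 site each in P-KO (log2 difference -3.58, SE 0.94, adjusted p = 0.999 by edgeR). The FOX2 libraries had 108 and 93 counts there in WT, against 67 and 143 in P-KO. ENST00000379992.2, at chr9:28062586-28664855 on the minus strand, had 30 counts in 4 sites and 23 in 7 in WT, with neither P-KO library listing it (adjusted p = 0.999 by edgeR). FOX2 and TDP43 were listed there in all 8 libraries, with 2 to 82 counts.

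Several of these had most or all of their sites in a single intron. At chr3:99540118-99868160, plus strand, 26 of 27 sites lay in intron 1, with 43 and 67 counts in WT, against 10 and 6 in P-KO (log2 difference -2.33, SE 0.77). At chr13:45042164-45143149, minus strand, all 21 sites lay in intron 2, with 61 and 44 counts in WT, against 8 and 4 in P-KO (log2 difference -2.78, SE 0.87). At chrX:72803551-72897136, plus strand, 24 of 25 sites lay in intron 3, with 52 and 61 counts in WT, against 3 and 8 in P-KO (log2 difference -2.86, SE 0.90). At chr7:50800387-50860552, minus strand, 26 of 36 sites lay in intron 16, and WT had 5 and 27 sites against 1 and 3 in P-KO (log2 difference -2.24, SE 0.76 on counts). Both P-KO values below both WT values was a condition for being among these transcripts. None passed (adjusted p = 0.999 by edgeR for each).

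The remaining transcripts of smallest p also did not pass. At chr2:39477120-39660911, minus strand, WT had 59 and 41 counts and P-KO 9 and 4. At chr9:33922400-34048583, minus strand, WT had 55 and 41 counts and P-KO 7 and 7. The transcripts at chr5:7397074-7822084 and chr6:15246985-15520059, described above by their share, were also among the 10 of smallest p on the lower side. Of all 10 on the higher side, 5 were listed at 0 in both WT libraries, a number that includes ENST00000453386.2 and ENST00000311172.7.

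Of the 12003 transcripts, 500 were listed in both WT libraries and neither P-KO library, and 141 the reverse. WT replicate 2 listed 9104 transcripts, against 3760, 3937 and 5034 in the other libraries. Of the 9104, 3996 were listed in no other hnRNP M library. In the replicate 1 libraries, which had similar numbers of sites, 1911 transcripts were listed in WT and not in P-KO, 2088 in P-KO and not in WT, and 1849 in both. In the replicate 2 libraries these numbers were 5446, 1376 and 3658. WT replicate 2 was also the library with the most sites, and the part of depth in these numbers was not tested.

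Among the 500, the most sites were 12, at chr5:141690862-141694828, chr22:28258953-28306762 and chr4:874788-925938, all on the minus strand. The transcript at chr22:28258953-28306762 had 13 counts in 2 sites and 34 in 10 in WT (adjusted p = 0.999 by edgeR). Among the 141, after those named above, chr11:19140874-19153359 on the plus strand had 3 counts in 1 site and 19 in 4. All 5 of these sites lay in intron 1.

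At the level of single sites, hnRNP M libraries shared little. Of the sites of WT replicate 1, 1.06% lay within 10 nt of a site of WT replicate 2, which is 0.241% of the latter. Between the P-KO libraries the shares were 0.433% of replicate 1 and 0.299% of replicate 2. Between genotypes, 0.503% of WT replicate 1 sites lay near a P-KO replicate 1 site (0.459% the other way), and 1.73% of P-KO replicate 2 sites lay near a WT replicate 2 site (0.626% the other way). Sharing was thus not uniformly higher within a genotype than between genotypes. On average over pairs, the smaller library shared 0.747% of its sites within a genotype and 0.946% between genotypes. Among sites with a count of at least 10, these shares were 0.740% and 3.39%.

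Within 10 nt of a site in single FOX2 or TDP43 libraries lay 1.02% to 3.71% of hnRNP M sites. Those libraries listed 57100 to 112301 sites, more than any hnRNP M library, so more of their sites can lie near. Sites that were repeated in another hnRNP M library were more often near a FOX2 or TDP43 site than the rest. In WT replicate 1 this held for 26.1% of 134 repeated sites and 6.50% of the others. The values were 37.9% of 364 and 9.83% in WT replicate 2, 29.5% of 156 and 7.42% in P-KO replicate 1, and 41% of 251 and 9.71% in P-KO replicate 2. Repeated sites were also less often intronic, with 85.3% to 88.8% against 93.3% to 95.5% of the others. These shares were the same way in all 4 libraries and are given without a test.

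**Figure D4:**
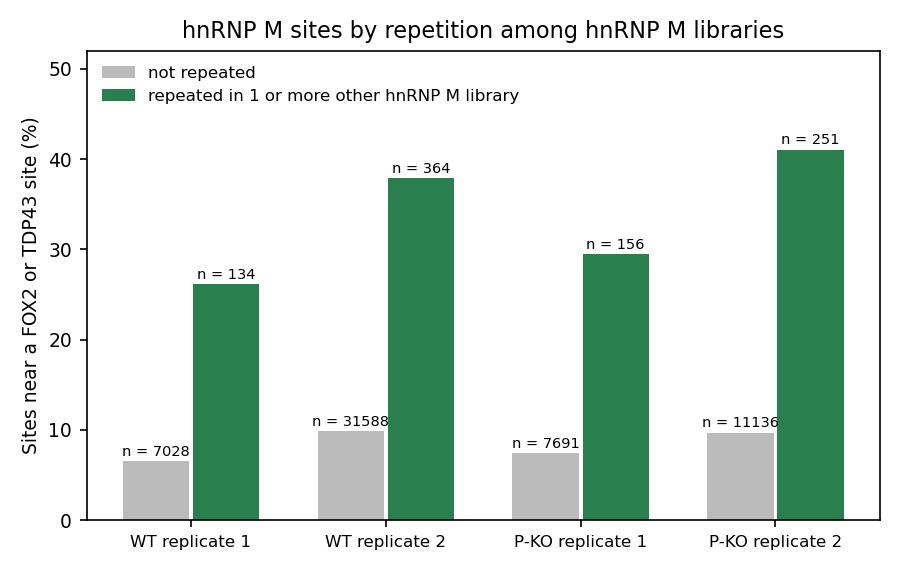
Percentage of hnRNP M sites within 10 nt of a site in any FOX2 or TDP43 library, by library, for sites not repeated (grey) and repeated (green) within 10 nt in another hnRNP M library; n is the number of sites. Repeated sites reach 26.1% to 41% and the others 6.50% to 9.83%.

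No site was listed in all 4 hnRNP M libraries, and 10 were listed in 3. Of these, 7 were intronic and 3 carried no intron number, and 8 of the 10 had a site in a FOX2 or TDP43 library. The highest was at chr17:19091386-19091388 on the plus strand, without an intron number, with 10 and 126 counts in WT, against 0 and 67 in P-KO. All 8 FOX2 and TDP43 libraries listed it, with 3 to 522 counts. At chr10:103124691-103124701, minus strand, also without an intron number, WT had 0 and 28 counts and P-KO 16 and 14, and all 8 other libraries listed 45 to 372. Both sites were thus listed with each of the 3 precipitated proteins.

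Only 2 of the 10 were listed with hnRNP M alone. The site at chr6:15379405-15379411 on the plus strand lies in intron 2 of the transcript with the highest share and had 9 and 0 counts in WT, against 7 and 11 in P-KO. The site at chr19:54970437-54970440 on the plus strand, in intron 15, had 0 and 4 counts in WT, against 8 and 5 in P-KO. The same intron held another of the 10, at position 54970173, with 7 and 5 counts in WT, against 9 and 0 in P-KO. Its neighbourhood was listed in 1 other library, TDP43 WT replicate 1, with 3 counts. No genome of this build was used here, so the sequences of these sites are not printed.

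High counts at single positions were few. Sites of 20 counts or more numbered 1 and 22 in the WT libraries and 1 and 3 in P-KO, against 64 to 3453 in the FOX2 and TDP43 libraries. They held 0.0365% and 0.717% of window counts in WT, against 0.0324% and 0.192% in P-KO. The highest count in WT replicate 1 was 22, at chrX:53685277 in intron 81 of a minus-strand transcript, where P-KO replicate 2 had 6. In WT replicate 2 the second highest was 87, at chr1:28833927 in intron 1 of a plus-strand transcript, and the other hnRNP M libraries were listed at 0 there. This position belongs to the transcript that was called lower in P-KO without WT replicate 1, and gave 87 of its 289 counts. In P-KO replicate 1 the highest was 20, at chr8:11033055 in intron 2 of a minus-strand transcript.

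Set against FOX2 and TDP43, hnRNP M counts were less concentrated. The top 1% of sites held 2.29% ± 0.614 of window counts (SD, n = 4 libraries) with hnRNP M and 9.31% ± 2.57 (SD, n = 8) with the other 2 proteins. A further site within 50 nt was found for 1.54% ± 1.15 of hnRNP M sites and 16.6% ± 9.50 of the others. Sites per listed transcript were 2.42 ± 0.744 and 4.59 ± 0.536. In each of these the 4 hnRNP M libraries lay below all 8 others (exact permutation test over libraries, two-sided, p = 0.00404, the smallest possible, and 0.00808 adjusted over 6 quantities). The hnRNP M libraries also had fewer sites, 7162 to 31952 against 57100 to 112301, and the part of this in the difference was not tested.

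The share of intronic sites was 94.3% ± 0.878 with hnRNP M and 92.8% ± 1.06 with the others (adjusted exact permutation p = 0.0339). The ranges overlapped, from 93.2% in the lowest hnRNP M library to 94.0% in the highest of the others. The share in first introns was 21.9% ± 0.354 and 21.4% ± 0.806, a difference that did not pass (adjusted exact permutation p = 0.255). The mean count per site was 6.21 ± 2.30 and 3.31 ± 0.962 (adjusted exact permutation p = 0.0339), with overlapping ranges.

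**Figure D5:**
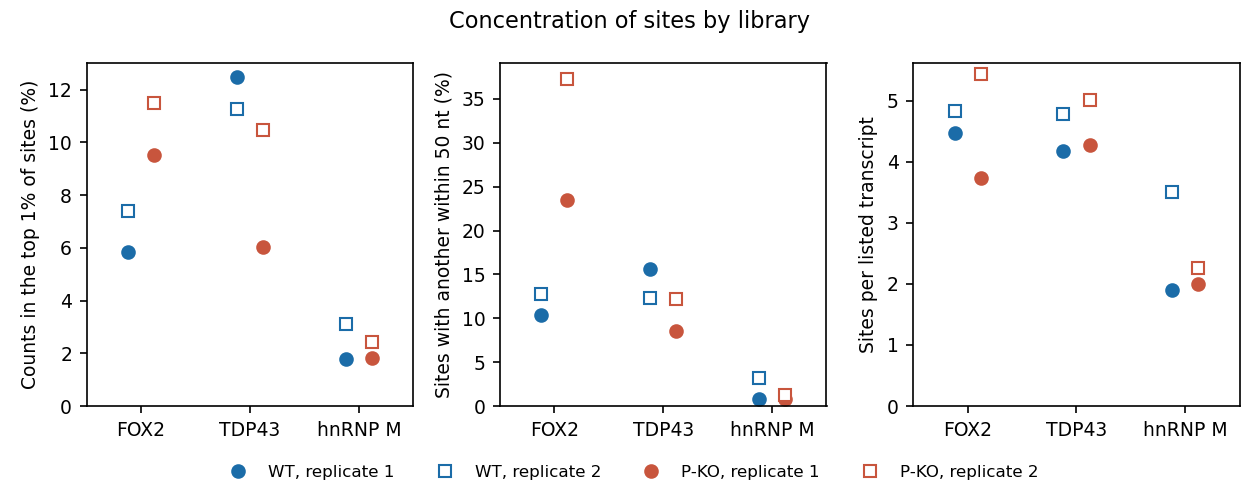
Share of window counts in the top 1% of sites, share of sites with another within 50 nt and sites per listed transcript, for each of the 12 libraries by protein; blue is WT, red P-KO, filled circles replicate 1 and open squares replicate 2. The 4 hnRNP M libraries lie below the 8 others in each panel.

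The effect of genotype on hnRNP M was also set against its effect on the other 2 proteins. Of 7166 transcripts, 0 passed in edgeR's interaction test (0% called), with 639 (8.92%) at an unadjusted p under 0.05 and a smallest adjusted p of 0.110. DESeq2 also called 0, of 50961, with 681 at an unadjusted p under 0.05. The number of calls was 34 without WT replicate 1, 32 without WT replicate 2, 2 without P-KO replicate 1 and 17 without P-KO replicate 2. In these fits the remaining library of the group was assumed to vary like the other groups. The low-count filter also let in more transcripts, 10635 to 10820 against 7166. The libraries present and the transcripts tested thus changed together, and their parts in the number of calls were not tested. A count of 0 does not make the effects alike.

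Along the genome, sites fell in 31216 strand-specific 10 kb bins, of which 541 had a site in all 4 libraries. The densest was chr5:93680001-93690000 on the minus strand, with 17 and 50 sites in WT, against 18 and 22 in P-KO. FOX2 had 70 and 69 sites in this bin in WT, against 104 and 119 in P-KO, and TDP43 7 to 22. The bin at chr11:65190001-65200000, plus strand, had 6 and 29 sites in WT, against 12 and 15 in P-KO, and its neighbour at chr11:65200001-65210000 had 6 and 16 against 10 and 4. A bin of the highest transcript, chr6:15420001-15430000 on the plus strand, had 11 and 17 sites in WT, against 5 and 6 in P-KO. The densest bins were thus occupied in both genotypes.

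The share of sites by chromosome was close in both genotypes. Of chromosomes 1 to 22 and X, 3 had shares higher in both P-KO libraries than in both WT libraries (13%), 4 lower (17.4%) and 16 overlapping. Chromosome 14 held 3.14% and 2.95% of sites in WT, against 2.83% and 2.75% in P-KO. Chromosome 11 held 4.80% and 4.69% in WT, against 4.94% and 5.28% in P-KO.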

How the data were processed

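The submitters' processing notes name Bowtie and GRCh37 (hg19); the Bowtie version and the tool that called peaks were not found in the labels or headers. For each nucleotide the authors deposited a whole-number count, an Ensembl transcript with any intron number, a strand and a last column of p-values or q-values, none above 0.05 (which of these it holds is not stated). Whether the deposited counts are reads or collapsed cDNAs is not stated. Each was read as covering 5 nt on both sides, so overlapping windows were not added. Window counts were summed per transcript and tested with edgeR 4.0.16 in R 4.3.3 (filterByExpr, TMM, quasi-likelihood test, Benjamini-Hochberg adjustment, threshold 0.05) on the 4 hnRNP M libraries, and the interaction on all 12; DESeq2 1.42.0 was an alternative. Single values were tested by exact permutation in Python 3.11.15 with scipy 1.17.1. The edgeR fit was tested on simulated data with planted changes and a common spread for all transcripts. It gave these changes their direction but called none of them, so it had little power for them at that spread. CPM is window counts per 1000000 of a library. In the edgeR and DESeq2 fits the p-values rest on the spread between libraries of the same protein and genotype. The permutation tests between proteins pooled both genotypes, and FOX2 with TDP43.

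Transcripts were named by a rule: the 10 of smallest p in each direction with groups that do not overlap in TMM-normalized CPM and a mean of at least 10 counts in the higher group (fewer than 5 passed), the 10 of highest share, those with sites shared by all 4 libraries (none), and those listed in 1 genotype only. With no table pairing transcripts and names, at most 2 identifiers per direction are printed, and the gene and marker lists planned were not analysed here. The members and lists were chosen with earlier results of these data known.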

Additional observations from a re-analysis of the deposited data

How the results depend on the processing

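The 0 transcripts called in P-KO against WT stayed 0 with DESeq2, without TMM, without a low-count filter, with at least 10 counts in 2 libraries, by number of sites, with each site capped at 20 counts, with sites at least 31 nt apart, with all 12 libraries, with the robust option, in 10 kb bins, in introns alone and with the last column at most 0.01. With all 12 libraries, 688 of 7166 transcripts had an unadjusted p under 0.05 by edgeR, 188 higher and 500 lower in P-KO. The smallest adjusted p of that edgeR fit was 0.0939, against 0.999 in the main fit. DESeq2's median log2 difference, over 12003 transcripts, was -0.91. edgeR without a low-count filter gave -1.09 over 12003, against -0.04 over the 1757 of the main fit. Of the 12003, 6520 were listed in 1 library only, and 3996 of these in WT replicate 2. The 2 further fits by number of sites, chosen after seeing the data, also gave 0. Deviations of the same-numbered libraries correlated over transcripts with r = 0.0764, a low value, and they were not paired in the main fit. Mean counts per site did go with the replicate number, at 8.41 (WT) and 7.86 (P-KO) in replicate 1 and 3.62 and 4.93 in replicate 2. Whether same-numbered libraries shared a batch was not tested. With the replicate block the number of transcripts called was 0 too, with 21 at an unadjusted p under 0.05 by edgeR. With the left-out regions kept it was 3, and leaving out 1 library gave 0 to 3. The interaction gave 1 call without TMM, 0 with the replicate block and 2 to 34 without 1 library. The mean difference in intron share kept its direction in every setting run, the block included (1.10 points). The genotypes overlapped by share of window counts and with the last column at most 0.01 (exact permutation p = 0.667 for each). The log2 mean count per site ranged from -0.436 to 0.780 when 1 library was left out and turned without WT replicate 2 (-0.436) or P-KO replicate 1 (-0.164). Overlap within a genotype was 0.0552% at the exact position and 2.41% within 50 nt, against 0.0958% and 2.78% between genotypes. Among sites of at least 10 counts it was 0.740% within and 3.39% between. These last values rest on few sites, mainly of 1 pair for the 3.39%, and the cause was not tested. The 20 transcripts of smallest p kept their direction, and their side of the threshold, in each of the 350 refits that held them. They had been chosen for groups that do not overlap in these same data. A kept direction was therefore largely set by the choice and is no further support for a difference. Depth limits single transcripts, at 1.90 to 3.51 sites per listed transcript.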
